A study of Homo sapiens with 4 samples.

Results

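In the control condition, 240 transcripts carried 3 or more separate ac4C peaks. They were selected on a measured value, the number of rows at distinct positions that a gene has in the shNC peak list outside the mitochondrial chromosome, and they are 240 of 4963 genes with any such peak (4.84%). The RNA came from FaDu, an established cell line from a human hypopharyngeal squamous cell carcinoma. One condition expressed a control shRNA (shNC) and the other an shRNA against NAT10 (shNAT10), and from each condition 1 immunoprecipitate (IP) and 1 input were sequenced, which makes 4 libraries. The labels give no number of shRNA sequences, clones, passages or days. The lists hold no RNA level, so the extent of the knockdown could not be read from them. With 1 library of each kind per condition there is no replicate, and no difference between the conditions was tested. The intervals given here are 95% Wilson intervals, or Newcombe intervals for a difference of shares. They cover the sampling of peaks or genes, not the spread between cultures, and peaks of 1 gene share that gene's RNA.

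N4-acetylcytidine (ac4C) is a cytidine that carries an acetyl group on the base. NAT10 is the enzyme known to write it on ribosomal RNA, on transfer RNA and, as reported, on messenger RNA. In acRIP-seq, fragmented RNA is pulled down with an antibody against ac4C, and a peak is a stretch of exonic sequence with more reads in the IP than in the input. The fold enrichment of a peak is the ratio of these. It depends on the antibody and on the input coverage of the transcript, and a peak with few reads can be called in 1 library and missed in the next.

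Most of the 240 transcripts, 185, had 3 peaks in shNC. A further 42 had 4, 11 had 5, 1 had 6 and 1 had 7. Together they held 791 of 6386 shNC peaks (12.4%). Their median fold enrichment in shNC was 11 (quartiles 5.78 and 23.5), beside 12.4 over all shNC peaks (quartiles 6.91 and 23.8), and the median length was 210 bases in both. The median log10 FDR was -15.1 in these transcripts and -8.84 over all peaks. The median enrichment of transcripts with many peaks was thus no higher than that of all peaks, while the median FDR was smaller. Within 1 transcript the peaks were unequal: the strongest peak exceeded the weakest by a median of 5.56-fold (range 1.05 to 85.7). Neighbouring peaks lay a median of 508 bases apart in the genome (quartiles 178 and 1489), and 27.4% of the 551 neighbouring pairs were within 200 bases of each other, and 7 of these pairs had spans that overlapped. With peaks closer than 200 bases counted as 1, 142 genes met the rule instead of 240.

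In shNAT10 the same 240 transcripts had 527 peaks. The mean number per transcript was 3.30 in shNC and 2.20 in shNAT10, a change of -1.1 (SD 1.05 over 240 genes). Fewer peaks were listed in shNAT10 for 164 transcripts (68.3%, 62.2 to 73.9), the same number for 66 and more for 10. Over all genes with a shNC peak, 45.2% had fewer. The rule used the shNC number, so a lower number in the other list is in part fixed by the choice, and nothing is read from this difference. At least 3 shNAT10 peaks, at the same or other places, were listed for 95 of 240 (39.6%, 33.6 to 45.9), 65 transcripts had 1 and 9 had 0. On either side of the threshold, genes with 3 shNC peaks had a mean of 1.98 shNAT10 peaks and genes with 2 had a mean of 1.24.

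The same rule was then run in the other direction. There were 229 genes with 3 or more shNAT10 peaks, and their mean number was 3.28 in shNAT10 and 2.23 in shNC, a change of -1.05 (SD 1.22 over 229 genes). At least 3 shNC peaks were present in 95 of these 229 (41.5%, 35.3 to 48.0), beside 39.6% in the first direction. Fewer peaks in the list not used for the choice were found for 144 (62.9%, 56.5 to 68.9). Genes with 0 peaks in the other list numbered 15 of 229 here and 9 of 240 before. The loss of peaks seen from the shNC side was therefore close in size to the loss seen from the shNAT10 side. The whole lists were of like length, with 6386 shNC and 6398 shNAT10 peaks.

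**Figure D1:**
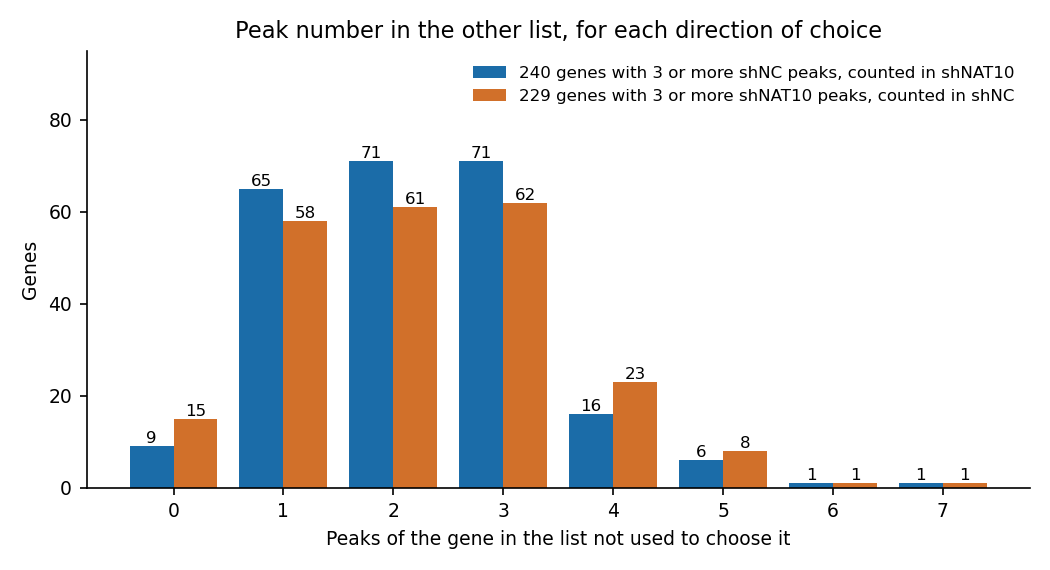
Number of genes (vertical axis) by their number of peaks in the list not used to choose them (horizontal axis), for 240 genes chosen in shNC and counted in shNAT10 (blue) and for 229 genes chosen in shNAT10 and counted in shNC (orange). Both sets have most genes at 1, 2 and 3 peaks, and 95 genes at 3 or more.

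Of the 791 shNC peaks, 467 (59.0%, 55.6 to 62.4) shared at least 1 exonic base on the same strand with a shNAT10 peak, and 324 did not. Over all shNC peaks, 48.4% had no overlapping shNAT10 peak. The overlapping share was 50.2% in genes with 1 shNC peak, 51.1% in genes with 2, 58.2% in those with 3, 59.5% in those with 4 and 64.7% in those with 5 or more. The 240 transcripts exceeded the remaining genes (50.5%) by 8.55 percentage points (4.85 to 12.2). Without ribosomal protein genes that had a symbol, on both sides, the shares were 54.6% and 50.1%, a difference of 4.50 points (0.54 to 8.41). Transcripts with no symbol stayed in. Those within the RefSeq spans of RPL6, RPLP0 and RPL38 had every shNC peak overlapping. This difference is therefore not free of ribosomal protein peaks.

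The overlapping share fell with rising p of the peak. All shNC peaks were put into 4 bins of about equal size by p. In bin 1, which holds the smallest p, 90.6% of the peaks on the 240 transcripts and 91.4% of the others overlapped. The shares were 63.1% and 60.8% in bin 2, 33.3% and 35.5% in bin 3, and 21.6% and 18.6% in bin 4. None of these 4 differences had an interval that left out 0, and the widest ran from -9.34 to 5.63 points. The 240 transcripts had 36.4% of their peaks in bin 1. Within equal ranges of p, a difference between transcripts with many peaks and the others was thus not detectable.

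The same was seen within a transcript. The peak with the smallest p overlapped a shNAT10 peak in 200 of 240 transcripts (83.3%, 78.1 to 87.5), and the peak with the largest p in 90 (37.5%, 31.6 to 43.8). Overlapping peaks of these transcripts had a median fold enrichment of 15.5, a median length of 268 bases and a median log10 FDR of -48.7. Peaks with no overlap had 7.89, 180 bases and -4.23. Every shNC peak overlapped a shNAT10 peak in 62 transcripts and none did in 16. In 65 transcripts, at least 1 shNC peak had no overlap and at least 1 shNAT10 peak lay where shNC had none. In these, the peak number alone understates how much the positions differed. In others the number fell with no shNC site lost. GATA3 went from 3 peaks over 868 exonic bases to 1 over 986, and EEF1A1 from 3 over 899 to 2 over 1108. All shNC peaks of both overlapped a shNAT10 peak, so there the peak number overstates the loss.

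**Figure D2:**
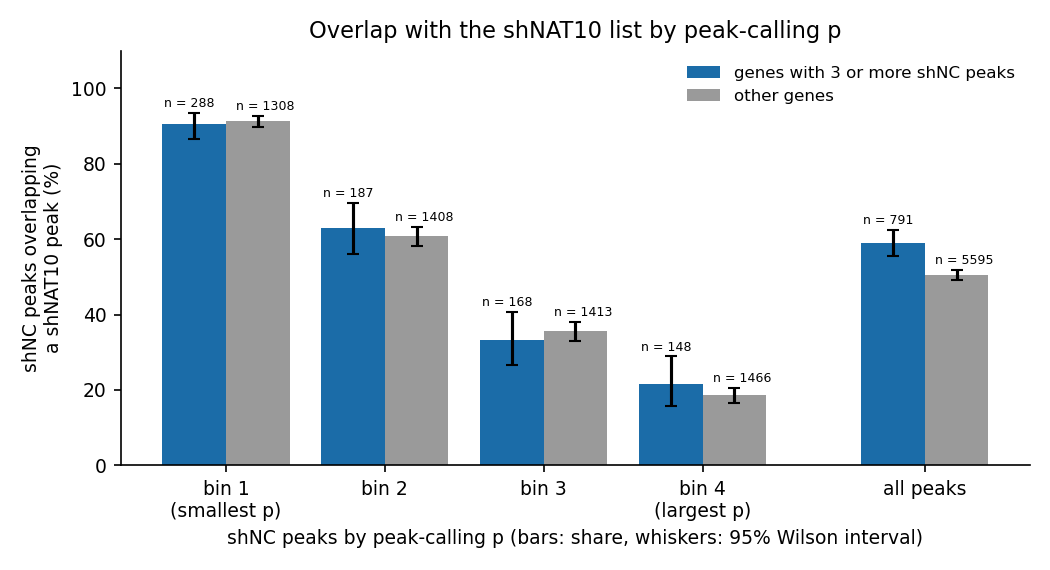
Share of shNC peaks that overlap a shNAT10 peak (vertical axis, percent) by bin of the peak-calling p and over all peaks, for the 240 genes with 3 or more shNC peaks (blue) and all other genes (grey), with 95% Wilson intervals and the number of peaks. The bars fall from 90.6% and 91.4% in bin 1 to 21.6% and 18.6% in bin 4, and over all peaks they stand at 59.0% and 50.5%.

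The fold enrichment of peaks kept in both lists was compared over 429 pairs in 224 of the transcripts, each pair being the best-overlapping peaks of 1 gene. The median ratio of shNAT10 to shNC was 0.932 (0.852 to 1.05) and its quartiles were 0.598 and 1.63. Over all 3172 pairs the median was 0.945 (quartiles 0.504 and 1.79). The ratio was at least 2-fold lower in 81 pairs (18.9%) and at least 2-fold higher in 89 (20.7%), where 24.9% and 21.9% of all pairs passed these folds. Higher and lower values were thus about as common as each other, and neither share exceeded that over all genes. The scaling between the libraries is not given in the sources used here, so a common shift of all ratios has no meaning of its own.

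Gene symbols were available for 170 of the 240 transcripts, those with at least 1 row in the authors' table of differential peaks. Of these, 166 were protein coding in that table, 2 antisense RNA, 1 processed transcript and 1 of unassigned class (TEC). The other 70 carry an identifier only. The one with the most peaks, ENSG00000079337, had 7 in each list, and all its shNC peaks lay within the RefSeq (GRCh38.p14) span of RAPGEF3, a guanine nucleotide exchange factor that responds to cyclic AMP, at chr12:47734363-47758880. Its shNC fold enrichments ran from 8.98 to 117 and its shNAT10 fold enrichments from 8.87 to 84.8, and 6 of its 7 shNC peaks overlapped a shNAT10 peak. ENSG00000154358, with 5 shNC peaks between 6.91 and 22.8, had 3 shNAT10 peaks, none at the same place.

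Ribosomal protein genes, which code for the protein part of the ribosome, were the most numerous family. This family was picked out after the members had been seen, and only genes with a symbol could be sorted. Of 62 such genes with a shNC peak, 30 had 3 or more (48.4%), beside 170 of 1984 symbols in all (8.57%). Their 102 shNC peaks stood against 95 in shNAT10. Of the 30, 19 had the same number in both lists, 9 had fewer in shNAT10 and 2 more. Of the 102 peaks, 91 overlapped a shNAT10 peak (89.2%, 81.7 to 93.9). The peaks of the other 210 transcripts, which include unnamed ones within ribosomal protein gene spans, overlapped in 54.6% (50.8 to 58.3). Ribosomal protein genes with only 1 or 2 shNC peaks had 49 of 51 overlapping (96.1%, 86.8 to 98.9), so the high share was also found in the family outside the 240 transcripts. Among the ribosomal protein peaks, 79.4% lay in the bin with the smallest p. In that bin 77 of 81 overlapped (95.1%, 88.0 to 98.1), where the other transcripts of the 240 had 184 of 207 (88.9%, 83.9 to 92.5). The 89 paired peaks had a median ratio of 0.937, with 9 at least 2-fold lower and 15 at least 2-fold higher in shNAT10.

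Fold enrichments of a transcript are listed from 5′ to 3′ from here on. Values at the same place in the order of the 2 lists are not always from overlapping peaks. RPL13A had 5 peaks in each list, with 6.21, 2.29, 12.1, 18.1 and 55.6 in shNC and 2.28, 8.72, 7.61, 54.1 and 61.6 in shNAT10. Its first shNAT10 peak, of 2.28, overlapped no shNC peak, and its 5 shNC peaks overlapped the other 4. RPL13 had 5 in each, with 1.35, 3.87, 15.5, 28.3 and 19.5 in shNC and 2.29, 3.51, 16.8, 18.8 and 17.7 in shNAT10. In both genes the lower values lay toward the 5′ end in either list. RPL3 had 5 shNC peaks (1.93 to 53.2) and 6 in shNAT10 (2.5 to 38.7), with ratios from 0.187 to 1.30 in its 5 pairs. RPL14 had 3 weak shNC peaks (2.69, 2.76 and 5.49) and 5 in shNAT10 (3.13 to 9.8), of which 2 lay where shNC had none. The ribosomal protein genes are known for many processed pseudogenes of near-identical sequence, and how reads that fit several places were counted is not given in the sources used here. The position of these peaks is uncertain to that extent.

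Some shNC peaks covered the annotated first base of their gene, and these start sites are shown because ribosomal protein mRNAs are known for beginning with a C and a run of pyrimidines (the 5′ terminal oligopyrimidine element, which ties their translation to growth signals). The first 30 bases from the RefSeq start (GRCh38.p14, plus strand) are given for the genes whose shNC peak covered the whole stretch, with the pyrimidine run that begins at the first base in capitals.
RPS27, chr1:153990762-153990791: CCTTTCCggcggtgacgacctacgcacacg
RPLP1, chr15:69452818-69452847: CCCCTTTCCTCagctgccgccaaggtgctc
PPIA, chr7:44796681-44796710: gttttgcagacgccaccgccgaggaaaacc
LAMTOR4, chr7:100148918-100148947: CTgaagccggaagctacctatctggtaggg
NDUFA13, chr19:19516225-19516254: gggatactgcgagtatggcggcgtcaaagg

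The start peak of RPS27 had a fold enrichment of 8.52 in shNC and 2.51 in shNAT10, that of RPLP1 had 25.3 and 16.1, and that of PPIA, the peptidyl-prolyl isomerase cyclophilin A, had 8.11 and 4.29. All 3 were lower in shNAT10, each with 1 value per condition. LAMTOR4, a subunit of the lysosomal Ragulator complex, had a start peak of 13.8 in shNC. NDUFA13, a subunit of respiratory complex I, had one of 3.6, and no shNAT10 peak reached either start. All 4 shNC peaks of NDUFA13, the start peak included, still overlapped a shNAT10 peak. All 4 also shared bases with a peak listed under another gene. Of the ribosomal protein genes among the 240, 24 had a promoter entry, and 14 of the 24 began with C and had a run of at least 5 pyrimidines (58.3%). Over the 132 transcripts with an entry the share was 20.5%, and over all 27305 promoters of the same length 4.04%. The letters counted are C or T on the strand of the gene, starting at the annotated first base.

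All 4 keratin genes with a symbol and a shNC peak were among the 240, again a family picked out after the members had been seen. Keratins are the intermediate filaments of epithelial cells, and KRT18 and KRT19 had been listed as markers of the epithelial cell type. The 4 genes had 16 shNC and 15 shNAT10 peaks, and 15 of the 16 overlapped. Their median fold enrichment in shNC was 77.7, and the 14 paired peaks had a median ratio of 0.763 (range 0.0197 to 9.09), with 4 at least 2-fold lower and 2 at least 2-fold higher. Keratin genes with no symbol could not be sorted, so these shares may not hold for the whole family. ENSG00000171346, an unnamed member, lay between KRT13 and KRT19 on the same strand (chr17:41513773-41516816). It had 3 shNC peaks, of which 1 overlapped, and 2 shNAT10 peaks.

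KRT13 (chr17:41501011-41505506, minus strand) had 3 peaks in each list, with 157, 160 and 168 in shNC and 33.5, 90.2 and 78.7 in shNAT10. All 3 were lower in shNAT10. KRT7 (chr12:52233324-52251796) had 6 shNC peaks, of 18, 10.4, 72.5, 180, 95.2 and 87.3, of which the first 2 overlap each other. Its 4 shNAT10 peaks had 68.8, 3.55, 179 and 79. The shNC peak of 180 was paired with the shNAT10 peak of 3.55 while the next, of 95.2, was paired with 179, so the highest value of this transcript stood on neighbouring peaks in the 2 lists. KRT18 had 7.19, 9.89, 40.1 and 34.1 in shNC and 5.26, 9.19, 31.4 and 115 in shNAT10, where only the last was higher. KRT19 had 82.9, 3.63 and 159 in shNC against 4 shNAT10 peaks of 22.8, 33, 76.1 and 118, and its pairs went in both directions. Of the other cell type markers that were listed, LAMB3, a laminin chain of epithelial basement membranes, had 1 peak in each list, and COL1A1, the collagen chain typical of fibroblasts, had 2 in shNC and 0 in shNAT10. The remaining markers had no symbol in the files.

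Genes of RNA binding, splicing and translation gave 11 of the 240, out of 67 with a symbol and a shNC peak. They had 34 shNC and 25 shNAT10 peaks. The number was lower in shNAT10 for 7, equal for 3 and higher for 1, and 23 of the 34 peaks overlapped (67.6%, 50.8 to 80.9). The higher one was HNRNPA3, a nuclear RNA-binding protein, with shNC peaks of 2.89, 7.7 and 31.8 and shNAT10 peaks of 3.49, 103, 95.5, 13.5 and 10.5. The 3 shNC peaks were all found again, 1 of them 13.4-fold higher, and the last 2 shNAT10 peaks were in the 3′ part where shNC had none. HNRNPA2B1, of the same family, had 6.72, 24.8 and 21.4 in shNC and 4.06 and 39.6 in shNAT10, with 1 overlap. RBM17, a splicing factor, had shNC peaks of 13.1, 8.98 and 43.5 and none in shNAT10. The elongation factor EEF1A1, which brings aminoacyl-tRNA to the ribosome, had 4.18, 5.1 and 43.7 in shNC and 6.28 and 70.6 in shNAT10. All its shNC peaks overlapped one of the 2. By shared bases the peak of 70.6 was paired with that of 5.1, at a ratio of 13.8, and that of 43.7 had no pair. This pair counts among those at least 2-fold higher.

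The largest losses in number were in genes of varied function. NOP53, a ribosome biogenesis factor of the nucleolus, had shNC peaks of 22.8, 7.02, 7.6, 4.87 and 28.1 and a single shNAT10 peak of 2.82. The surviving peak was at the site of the weakest shNC peak. NAP1L1, a histone chaperone, had 5 shNC peaks (1.56 to 55.3) and 2 in shNAT10, of which 1 overlapped the strongest with 13.7 in place of 55.3. TIMP3, an inhibitor of matrix metalloproteinases, had 19.3, 5.53, 33.2, 17.3 and 26.2 in shNC and 12.7 and 24.5 in shNAT10, with 1 overlap. NMT1, an N-myristoyltransferase, had 3.25, 11, 16.4 and 4.26 in shNC and 1 shNAT10 peak of 12.7 at the site of the peak of 11. Loss of peaks and height of those that stayed thus did not go one way: in NOP53 and NAP1L1 the remaining shared peak was lower in shNAT10, and in NMT1 it was 12.7 beside 11.

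Of the 9 transcripts with no shNAT10 peak, 6 had a symbol. CLUH, which binds mRNAs of mitochondrial proteins, had shNC peaks of 10.7, 5.21 and 79.6. GMPPB, which makes GDP-mannose for glycosylation, had 6.22, 22.8 and 124. FXYD3, a regulator of the sodium pump in epithelia, had 5.18, 8.95 and 6.98. MGST3, a microsomal glutathione transferase, had 21.4, 6.91 and 5.99, and RBM17 was described above. Each of these had at least 1 shNC peak under 10, while GMPPB and CLUH also had peaks among the higher values. A missing row does not show that a transcript carried no ac4C, since the input coverage of these genes is unknown.

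CCND2, cyclin D2, had 4.18, 4.6 and 17.6 in shNC and 13.3, 27.7, 16.1 and 44.8 in shNAT10. All 3 of its paired peaks were higher in shNAT10, by 2.55 to 6.63-fold. COX4I1, a subunit of cytochrome c oxidase, had 5.86, 39.9 and 57.9 in shNC and 8.44, 51.9 and 176 in shNAT10, also all higher. NDUFB9, a subunit of complex I, had 17.3, 180 and 6.43 in shNC and 91 and 50.7 in shNAT10. LAMA5, a laminin chain and the adhesion and matrix gene among the 240 (1 of 11 with a shNC peak), had 5.74, 191, 65.3 and 2.23 in shNC and 10.1 and 33.8 in shNAT10, where the peak of 33.8 was paired with that of 191. ADGRL1, an adhesion G protein-coupled receptor, had 18, 18.2, 6.47, 13.8 and 22.1 in shNC and 30.7, 17.7 and 9.72 in shNAT10.

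On the other lists, the cytoskeleton gave 1 transcript of 9, MYH14, a nonmuscle myosin heavy chain, with 4 peaks in each list. Of its 4 shNC peaks, 2 overlapped a shNAT10 peak, and its 2 pairs had ratios of 0.583 and 4.62. Ubiquitin ligases and proteases gave 3 of 12, namely HUWE1, TRIM28 and TRIM56, each with 3 peaks in shNC and 1 in shNAT10. The shNAT10 value was 22.8 for HUWE1, 8.78 for TRIM28 and 46.5 for TRIM56, and the highest shNC values were 10.9, 20.2 and 91.2. In TRIM28 the paired shNC peak was the weakest, of 12.3. The pair ratios were 2.09 for HUWE1, 0.714 for TRIM28 and 0.510 for TRIM56. Chromatin regulators (0 of 9) and zinc finger genes (0 of 19) gave none. All these counts are of genes with a symbol, so genes with no differential row are missing from them.

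IGF2 and H19, imprinted neighbours on chromosome 11 that code for a growth factor and a long noncoding RNA, were both among the 240. The antisense RNAs MIR497HG and AL358781.1 were also among the 240, outside the list of long noncoding RNAs chosen by symbol. ENSG00000203875, which has no symbol, lay within the RefSeq span of SNHG5, a long noncoding RNA of a kind on that list. It had 3 shNC and 2 shNAT10 peaks, and its 2 pairs had a median ratio of 0.455. Among genes with a symbol on the list of long noncoding RNAs, H19 was 1 of 17 with a shNC peak. Its 3 shNC peaks had 10.4, 8.98 and 73.6 and its shNAT10 peaks 13.5, 9.3, 27 and 141, and the 3 pairs were 1.30, 3.01 and 1.92-fold higher in shNAT10. IGF2 had 31.1, 20.7, 9.67, 11.1 and 51.8 in shNC and 11, 33, 15.2 and 212 in shNAT10. Its last pair was 4.09-fold higher and the other two were lower, and 3 of its 5 shNC peaks shared bases with a peak listed under another gene.

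Peaks on H19 and PTMA covered whole microRNA hairpins, which are cut from longer transcripts, and a peak on FXYD3 covered 31 of the 65 bases of another. The mature microRNAs that lie whole inside these peaks are shown for that reason, from RefSeq (GRCh38.p14), with the seed (bases 2 to 8) in capitals.
hsa-miR-675-5p in H19: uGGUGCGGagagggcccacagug
hsa-miR-675-3p in H19: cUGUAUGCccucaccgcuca
hsa-miR-1244 in PTMA: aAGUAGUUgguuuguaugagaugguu
hsa-miR-6887-3p in FXYD3: uCCCCUCCacuuuccuccuag

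No seed was shared among them. The H19 peak over both arms of miR-675 lay at chr11:1996731-1996909 (minus strand) with a fold enrichment of 8.98 in shNC, and at chr11:1996642-1996909 with 27 in shNAT10. The PTMA peak over miR-1244 lay at chr2:231713123-231713511 with 51.6 in shNC and ended at 231713541 with 108 in shNAT10. PTMA codes for prothymosin alpha, a nuclear protein of proliferating cells, and its other 2 peaks were weak in both lists (1.95 and 1.66 in shNC, 1.75 and 1.53 in shNAT10). The FXYD3 peak, at chr19:35122734-35122942 with 8.95, was listed in shNC only. The libraries do not tell a hairpin from its host exon.

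The authors' table of differential peaks had 281 rows on 170 of the 240 transcripts (70.8%, 64.8 to 76.2). Over all genes with a shNC peak, 40% had a row. A gene with more peaks has more chances of a row: the share was 34.7% with 1 shNC peak and 54.6% with 2. Counted per peak, 36.0% of the 791 peaks (32.8 to 39.4) overlapped a row, and 33.2% of all shNC peaks did. Per peak the share was thus near that of all peaks. There were 90 transcripts with 1 row, 52 with 2, 25 with 3 and 3 with 4, these last being RPL13A, HNRNPA2B1 and TIMP2. Of 80 transcripts with 2 or more rows, 32 had them in more than 1 region class. In 6 transcripts, 1 row lay over a peak found in shNC only and another over a peak found in shNAT10 only. HNRNPA2B1 and TIMP2, an inhibitor of metalloproteinases, were among these 6. TIMP2 had 6.49, 22.5 and 4.14 in shNC and 8.45 and 14.9 in shNAT10.

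The rows of these transcripts lay less often in the 3′-UTR and more often in coding sequence than those of other genes. The table put 114 of the 281 rows (40.6%) in the 3′-UTR, 85 (30.2%) in coding sequence, 79 (28.1%) in an exon of no further class and 3 (1.07%) in the 5′-UTR. Beside the 2512 rows of other genes, the share differed by -17.6 percentage points in the 3′-UTR (-23.5 to -11.4) and by 12.5 points in coding sequence (7.15 to 18.2). These other genes had fewer than 3 shNC peaks by the rule, and how far the rule shapes the differences was not tested. Without ribosomal protein genes on both sides, whose members had only 2 of 51 rows in the 3′-UTR, the differences were -10.3 points (-16.9 to -3.56) and 10.7 points (5.08 to 17). A row with a CXXCXXCXXCXX site, the cytidine-rich motif that the table marks, was found in 66.5% of the 281 rows and 60.1% of the others, a difference of 6.44 points (0.42 to 12). Per 100 exonic bases there were 0.536 sites in the first and 0.528 in the second. Rows that overlapped a peak in both lists made up 60.1% of the 281 and 37.9% of the others, rows over a shNC peak only 32.0% and 32.4%, and rows over a shNAT10 peak only 7.83% and 29.6%. The other genes include some with no shNC peak, which the rule kept out of the 240, so these 3 shares are in part fixed by the choice and nothing is read from their differences.

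**Figure D3:**
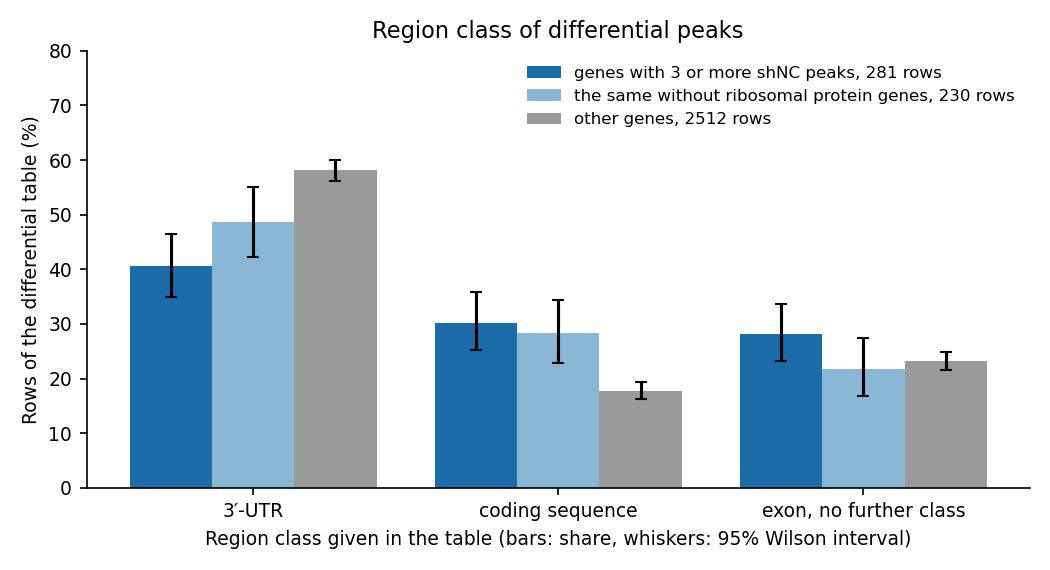
Share of rows in the authors' table of differential peaks (vertical axis, percent) by the region class the table gives, for the 240 genes with 3 or more shNC peaks (dark blue, 281 rows), the same without ribosomal protein genes (light blue, 230 rows) and other genes (grey, 2512 rows), with 95% Wilson intervals. The 3′-UTR share is 40.6%, 48.7% and 58.2% and the coding share 30.2%, 28.3% and 17.8%.

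Overlapping genes touched few of these results. Of the 791 peaks, 38 shared bases on the same strand with a peak listed under another gene, in 17 of the 240 transcripts, and with such peaks left out 224 genes met the rule and 58.1% of their peaks overlapped a shNAT10 peak. For 166 transcripts the symbol was in the RefSeq table, and in 149 of these every shNC peak lay within the RefSeq span of that gene. The 240 transcripts had peaks over 200364 exonic bases in shNC and 156031 in shNAT10. The median per transcript was 808 bases in shNC and 602 in shNAT10.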

How the data were processed

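acRIP-seq was analysed in FaDu cells with shNC and shNAT10, with 1 IP and 1 input library per condition. Per the labels, RNA was fragmented and pulled down with an ac4C antibody, and libraries were sequenced as paired ends. The submitters' processing notes name cutadapt 2.5, HISAT2 2.1.0, featureCounts 1.6.3 and HOMER 4.10.4, and list human builds (GRCh38, hg38) together with a mouse build. The peak caller and its thresholds are not given in the sources used here. Each list was matched to its condition through the prefix shared with the titles of the libraries.

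The deposited peak lists hold, for each peak, its exonic blocks, a fold enrichment (the ratio of IP to input, not on a log scale), a p-value and a log10 FDR. The table of differential peaks deposited by the authors also holds their log2 fold change, p-value and FDR between conditions, which were not used. Only its positions, region classes, symbols and motif sites were. Library depth is unknown.

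Rows on chromosome MT (16 in shNC, 18 in shNAT10) and 1 repeated row per list were left out. Overlap needed 1 exonic base on the same strand. Pairs are mutual best overlaps within a gene. Starts were raised by 1 for printing. The overlap code was tested on simulated peaks. No test between conditions was possible.

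The members, gene lists and families were chosen with earlier results of these data known. Named genes were the 10 members with the most shNC peaks, up to 5 with no shNAT10 peak, the 5 largest gains and 5 largest losses, the 3 highest fold enrichments per list, the 5 with the most differential rows, and members of lists with 5 or fewer, of which some are not reported here. EEF1A1, the keratins, RPS27, RPLP1, LAMTOR4, NDUFA13 and PTMA were added after their values were seen. RefSeq tables gave names, promoters and microRNAs. Alternatives were other peak numbers, an FDR of at most 0.05 and a fold enrichment of at least 4. Merging within 200 bases, removal of shared peaks and 50% overlap were further ones. Removal of ribosomal protein genes with a symbol was chosen after seeing the data.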

Additional observations from a re-analysis of the deposited data

How the results depend on the processing

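No paired analysis was possible because no condition had more than 1 IP and 1 input library. Of 53 recomputed values, 36 stayed within the interval of the reported value (for the number of genes, within 1.5 times). The mean change in peak number was negative in each of its alternatives, a sign that the choice by shNC number in part fixes. Choosing by shNAT10 number also gave a negative mean change (-1.05), so nothing is read from the sign. With 2 or more peaks, 1112 genes met the rule, 53.6% of their shNC peaks overlapped, the mean change was -0.83 peaks and 58.1% had a differential row. With 4 or more peaks, the values were 55 genes, a mean change of -1.36, 78.2% with a row, 29.1% with 4 or more shNAT10 peaks and 32.7% in the reverse direction. Merging within 200 bases left 142 genes and moved the median ratio of fold enrichment to 1.02, to the other side of 1 from the reported 0.932, whose interval includes 1. Requiring 50% overlap gave 47.5% overlapping peaks, and 64.6% of transcripts had a row over such a peak. Counting transcripts with at least as many shNAT10 as shNC peaks gave 31.7%. Ribosomal protein genes with a symbol were also left out, an alternative chosen after seeing the data. Then 54.6% of peaks overlapped and the difference from other genes was 4.50 percentage points. In that setting 33.3% of transcripts had 3 or more shNAT10 peaks, and the 3′-UTR share of differential rows was 48.7%. The unknown depth of the libraries limits every count of peaks, since a peak with a large p was found again in 21.6% of cases only.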
